A study of Mus musculus with 6 samples.

Results

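The genes described here are the regulators of the mammalian cell cycle other than the replication machinery, in mouse macrophages that carry a chimeric antigen receptor. They were taken from the deposited gene table as the rows whose pathway field holds the entry Cell cycle and not DNA replication, leaving out symbols that start with Tgfb or Smad, and Myc. Of 22063 rows in the table, 125 hold that entry, 7 of these also belong to DNA replication and 7 are Tgfb, Smad or Myc genes, so 111 genes remain. The rule uses the pathway annotation only and no measured value. Reads were enough to test 104 of the 111.

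RNA sequencing covered 6 samples in 2 groups of 3. The CAR-Trem2-Ms are macrophages given a lentivirus that installs the receptor, then VD3 at 1 µM for 24 h, and sorted by flow cytometry, with the genotype written as TERM2+ in their labels. The CAR-Ms are macrophages given the same lentivirus, with the genotype WT. All cells grew for 7 days in complete DMEM with M-CSF at 20 ng/mL, and the labels call the tissue skin and the cell type macrophage. A treatment protocol given for every sample also names VD3, so the labels do not settle whether CAR-Ms received it. Trem2 status, the sort and, unless CAR-Ms received it too, VD3 changed together between the groups and cannot be told apart. The stated aim was to compare the transcriptomes of these 2 preparations. No label ties the replicates to separate animals or cultures; a p-value here therefore reflects the spread among these 6 samples alone, and that spread may be technical. In bulk RNA, fewer cells of a type and less RNA per cell cannot be told apart, which here concerns the share of cells in cycle.

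Cells commit to division late in G1, when D cyclins with CDK4 or CDK6, and then E cyclins with CDK2, phosphorylate the RB family and release the E2F factors that transcribe genes for DNA synthesis. Origins of replication are licensed by the origin recognition complex and CDC6. After S phase, cyclin A and B with CDK1 drive entry into mitosis, the spindle checkpoint holds chromosome separation until every kinetochore is attached, and the anaphase-promoting complex (APC/C) then tags securin and cyclin B for destruction so that separase can cut cohesin. CDK inhibitors such as p21 and p27, the p53 pathway and the SCF ubiquitin ligase adjust these steps. In cultured macrophages, M-CSF is the signal that carries cells through G1, and D cyclins are among the genes it induces. The members were accordingly set in a G1/S set (D and E cyclins with their kinases, RB and E2F, origin licensing and firing), a mitotic set (cyclin A and B kinases, spindle checkpoint, APC/C, cohesin, Cdc14 phosphatases), and roles in neither set.

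Libraries held 9804959 to 12558021 counted reads in CAR-Trem2-Ms and 14204468 to 15913100 in CAR-Ms, and the members took 0.859% to 0.869% of the counts in CAR-Trem2-Ms and 1.335% to 1.346% in CAR-Ms. Trem2 averaged 191 ± 7.56 CPM in CAR-Trem2-Ms and 76.6 ± 2.31 CPM in CAR-Ms (SD, n = 3 each), the direction that the label gives. Its TPM averaged 233 ± 8.38 TPM in CAR-Trem2-Ms and 153 ± 4.23 TPM in CAR-Ms, a smaller difference, and both groups expressed it. Mitochondrially encoded genes took 13.38% to 13.8% of the counts in CAR-Trem2-Ms and 4.6% to 4.7% in CAR-Ms. Leaving them out of the fit gave the same counts of members called, 28 higher and 64 lower, which concerns the scaling only. What underlies the difference in their share was not tested. Of 10 macrophage markers, 7 were tested, 5 were higher and 2 lower, and their summed level was 3923 to 3946 CPM in CAR-Trem2-Ms and 3452 to 3477 CPM in CAR-Ms, with Mertk, Mrc1 and Cd163 too low to test. Keratinocyte markers, which the skin label could imply, had no read in 3 of 4 genes and at most 0.0603 CPM in any sample. The 8 neutrophil markers summed to 2.30 to 5.53 CPM in CAR-Trem2-Ms and 15.8 to 28.1 CPM in CAR-Ms, and the 7 T and NK cell markers to 5.21 to 8.39 CPM in CAR-Trem2-Ms and 0.922 to 1.21 CPM in CAR-Ms. The 4 B cell markers, of which 1 was higher and 3 lower, summed to 114 to 118 CPM in CAR-Trem2-Ms and 78.2 to 103 CPM in CAR-Ms, nearly all of it Ighm, and the part of such cells in the results was not tested.

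Members of the G1/S set were lower in CAR-Trem2-Ms almost throughout, while members of the mitotic set went both ways. Counts were tested with edgeR's quasi-likelihood test over all 11402 genes with enough reads, and a gene was called at a Benjamini-Hochberg adjusted p under 0.05. Of the 104 tested members, 64 (61.5%) were lower, 28 (26.9%) were higher and 12 were not called, where the same test called 81.1% of all genes, 40.9% of them as higher and 40.1% as lower. Of the 29 G1/S members, 25 (86.2%) were lower, 1 was higher and 3 were not called, with a median log2 fold change of -0.90 beside 0.03 over all tested genes. Of the 41 tested mitotic members, 21 (51.2%) were lower, 13 (31.7%) were higher and 7 were not called, with a median of -0.19. The contrast depends on how this set was composed. It holds 16 tested APC/C members, 6 higher and 6 lower, and 7 of cohesin and separase, 2 higher and 5 lower. Of 30 mitotic genes listed outside the members, 23 were lower and 5 higher. Changes of at least 2-fold were lower in 11 G1/S and 10 mitotic members and higher in 0 G1/S and 5 mitotic members; over all tested genes 14.3% were lower and 18.7% higher by that much. The CPM values of the groups did not overlap for 96 of the 104 members (92.3%), where this held for 81.8% of all tested genes.

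**Figure D1:**
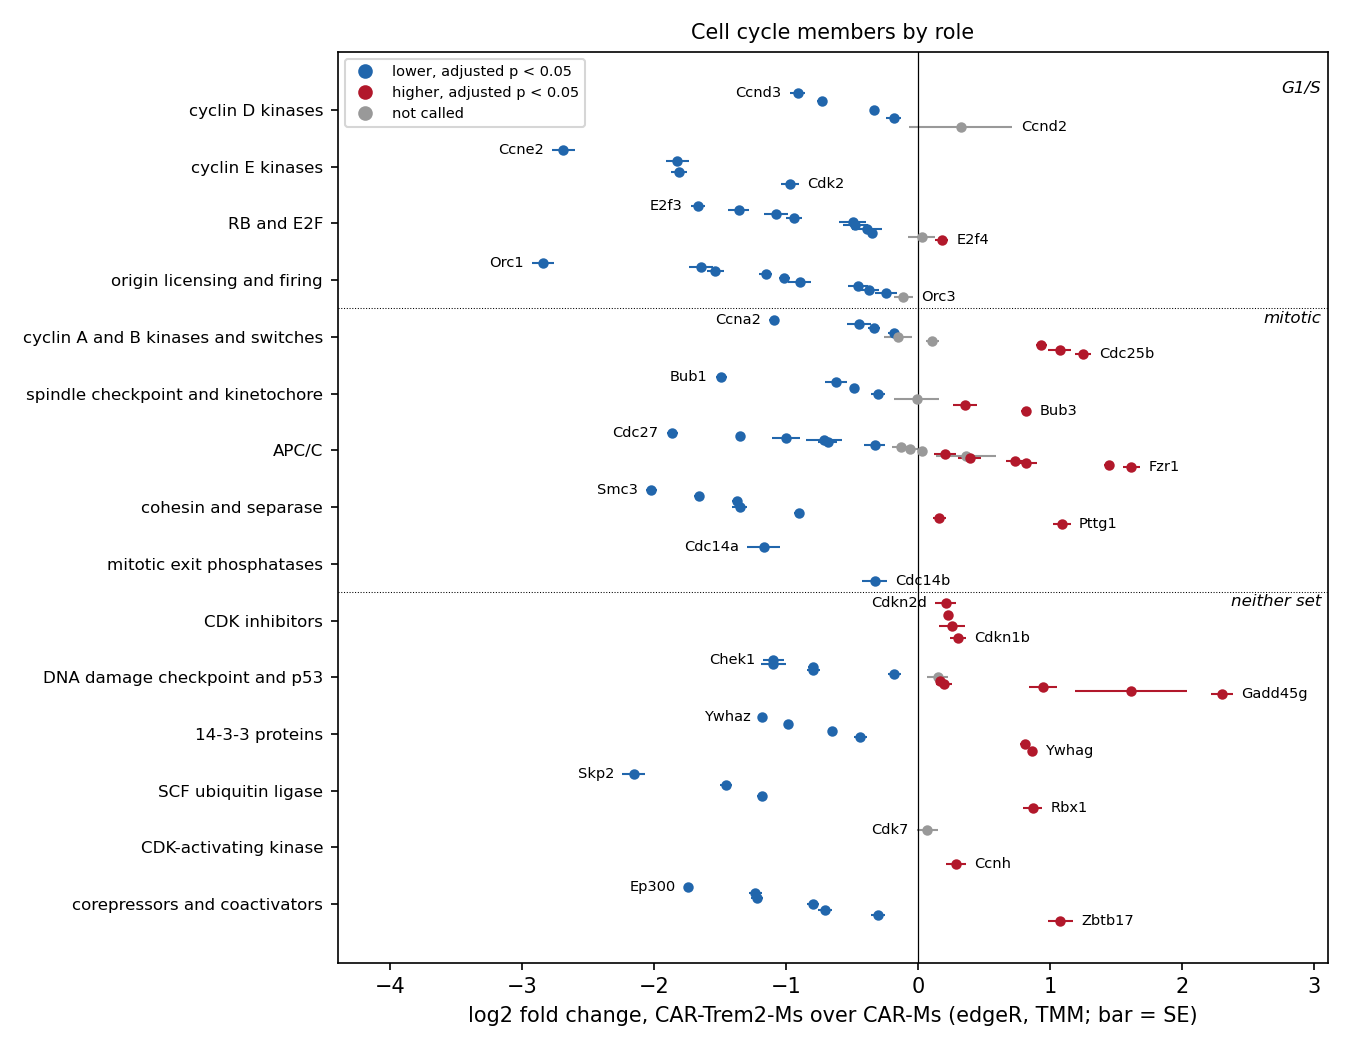
Log2 fold change of each of the tested members (x axis, CAR-Trem2-Ms over CAR-Ms, edgeR with TMM factors) by role (y axis); points are genes, bars are standard errors, blue is lower and red higher at an adjusted p under 0.05, and grey is not called. The 4 G1/S roles at the top lie almost wholly left of 0, between -2.84 and 0.32, while the mitotic roles reach from -2.02 to 1.61.

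Because 81.1% of all genes were called, the direction was read under 6 scalings of the data: TMM, RLE and upper quartile factors, total counts, log2(TPM + 1), and TMM with a per-sample correction for transcript length and GC content. They put the median log2 fold change of all genes at 0.03, 0.01, 0.26, -0.10, -0.63 and 0.02. With RLE factors 28 members were higher and 65 lower (all genes: 40.3% and 40.8%), with upper quartile factors 34 and 54 (50.1% and 31.6%), with total counts 20 and 69 (36.4% and 44.7%), on log2(TPM + 1) 11 and 85 of 103 (17.5% and 64.2%), and after the length and GC correction 27 and 63 (40.3% and 39.2%). Of 28 G1/S members testable under all 6, 20 (71.4%) were called lower under every one, where 29.7% of all genes were. Of 41 mitotic members, 16 (39%) were called lower under all 6 and 7 (17.1%) higher, where 17.1% of all genes were higher under all 6. Relative to the median of all genes under the same scaling, 26 G1/S members lay below it under all 6, and the exceptions were Ccnd2, Cdk6 and E2f4. In the mitotic set 22 members lay below the median and 12 above it under all 6. The share of all genes for which either held was not computed. TMM, RLE and upper quartile factors and total counts shift all genes almost alike. Distances from the median are therefore nearly the same among these by design, -0.93 for the G1/S median each time, and they are not separate checks. Some members counted lay close to the median, such as E2f5, at -0.003 from it with TMM factors. Of the 92 called members, 63 kept their direction but moved by over 1.5 times on log2(TPM + 1), where the median of all genes had itself moved to -0.63. The length and GC correction did so for 10, which were Anapc1 (-0.70 after it), Stag1 (-0.74), Gsk3b (-0.56), Skp2 (-1.57), Tfdp2 (-0.43), Gadd45b (-0.86), Gadd45g (1.42), Sfn (0.91), Atr (0.89) and Atm (-0.05).

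**Figure D2:**
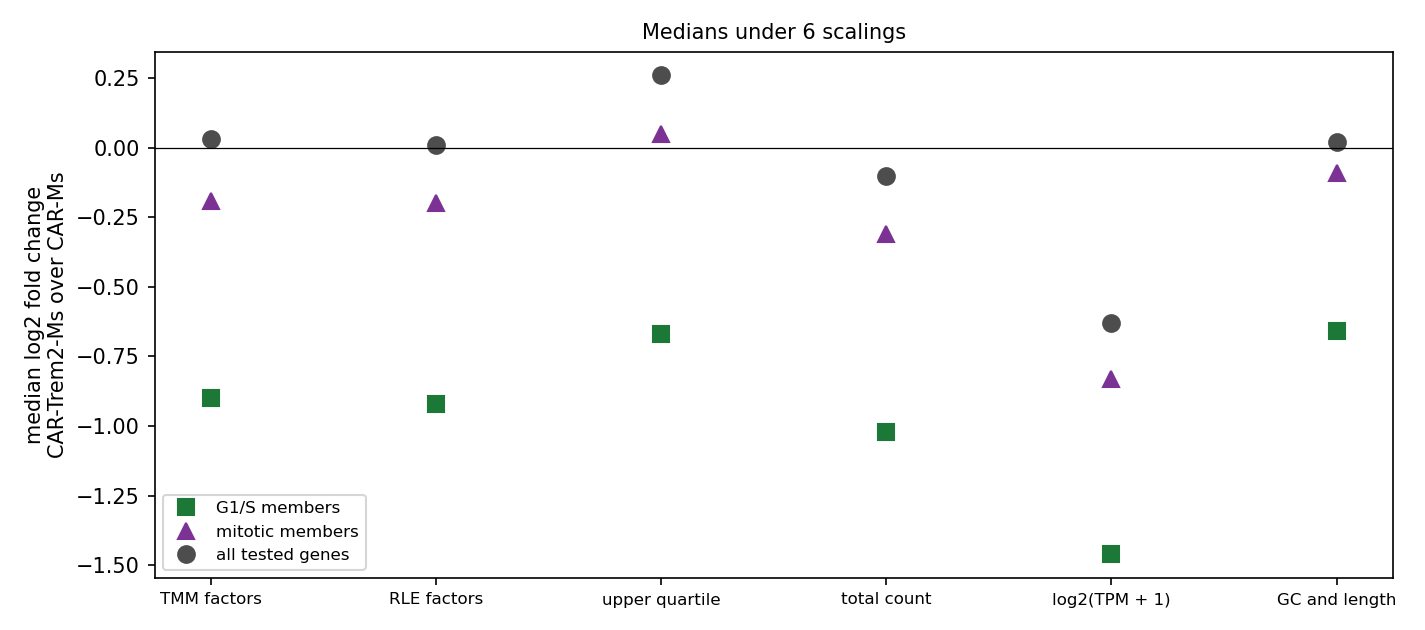
Median log2 fold change (y axis, CAR-Trem2-Ms over CAR-Ms) of the G1/S members, the mitotic members and all tested genes under 6 scalings (x axis). The G1/S median lies between -1.46 and -0.66 and below the median of all genes each time, and the mitotic median, between -0.83 and 0.05, lies closer to that of all genes. TMM, RLE and upper quartile factors and total counts shift all genes almost alike, so these distances are nearly the same among them by design.

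Promoter sequences are shown for 7 members with large fold changes, because motifs of the E2F factors and of the CCAAT and CHR elements, known from promoters of genes transcribed in G1/S and in G2 and mitosis, were searched in them. The windows are RefSeq sequences of build GRCm38.p6, which held 116 windows for 91 of the 111 members. Each line runs 5′ to 3′ in the direction of the gene, from 130 bases before the annotated start to 30 after it, with every motif found in capitals. Orc1, Ccne1, Cdc27 and Fzr1 have the largest fold changes with a motif in their set, and Cdc25a, Ccnb2 and Cdc20 were chosen after their values were seen. The first 3 lines are G1/S members that were lower, the next is a mitotic member that was lower, and the last 3 are mitotic members that were higher.
Orc1 (chr4:108579324-108579483, plus strand): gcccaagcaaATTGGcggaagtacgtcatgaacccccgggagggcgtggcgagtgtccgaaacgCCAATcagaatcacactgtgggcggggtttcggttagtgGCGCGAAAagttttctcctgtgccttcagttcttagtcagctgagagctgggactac
Ccne1 (chr7:38107461-38107620, minus strand): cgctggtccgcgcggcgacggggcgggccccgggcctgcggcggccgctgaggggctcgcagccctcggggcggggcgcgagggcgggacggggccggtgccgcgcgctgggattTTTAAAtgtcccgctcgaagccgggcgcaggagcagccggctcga
Cdc25a (chr9:109875449-109875608, plus strand): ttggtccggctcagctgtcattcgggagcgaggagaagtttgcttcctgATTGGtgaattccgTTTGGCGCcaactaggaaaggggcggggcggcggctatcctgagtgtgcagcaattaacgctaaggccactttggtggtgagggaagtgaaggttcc
Cdc27 (chr11:104550591-104550750, minus strand): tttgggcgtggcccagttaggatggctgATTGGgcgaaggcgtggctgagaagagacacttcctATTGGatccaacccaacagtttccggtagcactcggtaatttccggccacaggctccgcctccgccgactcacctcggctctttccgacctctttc
Fzr1 (chr10:81378341-81378500, minus strand): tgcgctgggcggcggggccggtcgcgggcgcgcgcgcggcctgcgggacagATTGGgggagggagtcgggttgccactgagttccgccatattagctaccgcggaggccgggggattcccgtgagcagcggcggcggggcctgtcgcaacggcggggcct
Ccnb2 (chr9:70421525-70421684, minus strand): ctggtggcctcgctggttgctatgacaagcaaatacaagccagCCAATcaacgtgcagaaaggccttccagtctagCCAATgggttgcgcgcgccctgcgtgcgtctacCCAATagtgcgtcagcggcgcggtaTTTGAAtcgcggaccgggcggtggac
Cdc20 (chr4:118437314-118437473, minus strand): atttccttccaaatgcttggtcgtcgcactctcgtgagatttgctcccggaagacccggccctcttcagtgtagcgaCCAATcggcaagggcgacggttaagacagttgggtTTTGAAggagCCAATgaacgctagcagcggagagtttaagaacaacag

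Motifs were searched on both strands from 250 bases before the start to 30 after it, as CCAAT, as TTTGAA or TTTAAA for the CHR element, and as TTTCCCGC, TTTGGCGC or TTTCGCGC for the E2F site. In the stretches shown, an E2F site lay 27 bases before the start in Orc1 and 67 before it in Cdc25a. In the stretch shown for Ccnb2 there were 3 CCAAT boxes, 87, 54 and 21 bases before the start, with a CHR element just after it, and in Cdc20 a CHR element lay 18 bases before the start between 2 CCAAT boxes. The whole window searched held 2 CHR elements in Ccnb2 and 2 CCAAT boxes in Cdc25a, some of them outside the stretch shown. Fzr1 had a single CCAAT box in the stretch shown, 79 bases before the start, Cdc27 had 2, 102 and 66 bases before it, and Ccne1 had the CHR letters 15 bases before it. E2F sites were in 28.1% of 32 G1/S windows, 6.98% of 43 mitotic windows, 3.35% of the windows of tested genes and 1.73% of all 32851 windows. CCAAT was in 37.5% of G1/S windows, 53.5% of mitotic windows, 37.6% of those of tested genes and 36.1% of all. The CHR letters were in 34.4% of G1/S windows, 32.6% of mitotic windows, 18.9% of those of tested genes and 26.7% of all. CCAAT and CHR stood together in 5 of 14 windows of higher mitotic members (35.7%), 3 of 22 of lower mitotic members (13.6%), 7.5% of those of tested genes and 10% of all. A gene can have more than 1 window: the 14 windows belong to 11 genes and the 22 to 17, and 2 of the 5 are of Bub3. The 32 G1/S windows belong to 23 genes and the 43 mitotic windows to 34, so these shares are not shares of genes. A match of letters describes the sequence and does not show that a factor binds there.

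Of the D cyclins, the M-CSF-responsive arm of G1, Ccnd1 and Ccnd3 were lower and Ccnd2 was not called. Ccnd1, the main D cyclin of these cells together with Ccnd3, read 164, 174 and 166 CPM in CAR-Trem2-Ms, against 280.4, 279.6 and 275 CPM in CAR-Ms, a log2 fold change of -0.73 ± 0.035 (SE). Ccnd3 read 56.8, 51.0 and 57.5 CPM in CAR-Trem2-Ms, against 99.7, 107 and 106 CPM in CAR-Ms, or -0.91 ± 0.058. In neither cyclin did the groups overlap. Ccnd2 was near the limit of detection, with 1.25, 4.14 and 3.67 CPM in CAR-Trem2-Ms, against 3.64, 1.45 and 2.11 CPM in CAR-Ms, the groups overlapped and it was not called (adjusted p = 0.45, edgeR), though it was called higher after the GC and length correction (0.86, adjusted p = 0.044). On the length-scaled TPM values Ccnd1 averaged 45.7 ± 1.57 TPM in CAR-Trem2-Ms and 122 ± 0.762 TPM in CAR-Ms, Ccnd3 averaged 38.4 ± 8.07 TPM in CAR-Trem2-Ms and 104 ± 4.83 TPM in CAR-Ms, and Ccnd2 averaged 0.467 ± 0.242 TPM in CAR-Trem2-Ms and 0.723 ± 0.186 TPM in CAR-Ms (SD, n = 3 each). Cdk4, the kinase partner, read 266, 265 and 259 CPM in CAR-Trem2-Ms, against 325, 332 and 338 CPM in CAR-Ms, which was lower by 0.34 ± 0.03 on the log2 scale. Cdk6, the other partner, read 81.8, 94.7 and 92.4 CPM in CAR-Trem2-Ms, against 96.0, 108 and 101 CPM in CAR-Ms; the highest CAR-Trem2-Ms sample lay just below the lowest CAR-Ms sample, and its log2 change of -0.18 ± 0.057 turned to 0.05 with upper quartile factors and to 0.53 after the GC and length correction.

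Both E cyclins, their kinase Cdk2 and its activator Cdc25a were lower. Ccne2 (coordinates on GRCm38 here and below: ENSMUSG00000028212, chromosome 4, 11191351 to 11204779, plus strand) had a level of 10.7, 12.6 and 12.3 CPM in CAR-Trem2-Ms, against 73.0, 79.5 and 76.6 CPM in CAR-Ms, 6.45-fold lower. Ccne1, the paralogue with the same role in starting S phase (ENSMUSG00000002068, chromosome 7, 38097984 to 38107534, minus strand), read 21.0, 17.7 and 20.3 CPM in CAR-Trem2-Ms, against 67.8, 64.5 and 78.1 CPM in CAR-Ms, 3.54-fold lower (log2 -1.82 ± 0.088; edgeR, Benjamini-Hochberg adjusted p = 3.2e-17). Both E cyclins were lower in each of the 3 CAR-Trem2-Ms samples than in any CAR-Ms sample. Cdc25a, the phosphatase that strips inhibitory phosphates from CDK2, read 29.4, 32.6 and 33.1 CPM in CAR-Trem2-Ms, against 109.6, 115 and 110.0 CPM in CAR-Ms, 3.52-fold lower (adjusted p = 1.3e-20). Cdk2 itself read 55.8, 45.4 and 48.4 CPM in CAR-Trem2-Ms, against 94.9, 100.2 and 99.7 CPM in CAR-Ms, 1.96-fold lower. The cyclin E role as a whole, all 4 of its members, was lower with a median of -1.82 (all tested genes: 40.1% lower).

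Of 10 members of the RB and E2F families, 8 were lower, E2f4 was higher and E2f5 was not called (all tested genes: 40.1% lower). E2f3, an activating E2F, read 43.0, 41.9 and 42.1 CPM in CAR-Trem2-Ms, against 132, 140.0 and 131 CPM in CAR-Ms, 3.18-fold lower. E2f2, of the same activating class, read 22.9, 26.1 and 21.8 CPM in CAR-Trem2-Ms, against 61.5, 59.4 and 60.3 CPM in CAR-Ms, 2.57-fold lower. Tfdp2, a DP partner that E2Fs need to bind DNA, read 23.4, 24.3 and 24.3 CPM in CAR-Trem2-Ms, against 44.4, 55.3 and 52.6 CPM in CAR-Ms, 2.12-fold lower. A lack of overlap between the groups was a condition for giving E2f3 and Tfdp2 in every sample. It also held for E2f2, as it did for 81.8% of all tested genes. E2f1, the other activating E2F, read 25.2, 29.9 and 22.4 CPM in CAR-Trem2-Ms, against 37.3, 31.8 and 39.9 CPM in CAR-Ms, a log2 fold change of -0.50 ± 0.10. Rb1, the retinoblastoma protein that holds E2Fs in check, read 26.5, 27.3 and 26.5 CPM in CAR-Trem2-Ms, against 38.1, 41.0 and 32.5 CPM in CAR-Ms, or -0.48 ± 0.094, and this was not called after the GC and length correction (-0.05, adjusted p = 0.64). The related pocket proteins were lower too, Rbl1 by 0.94 ± 0.063 and Rbl2 by 0.39 ± 0.11 on the log2 scale, though Rbl2 stood at 0.01 after that correction. E2f4, which acts mainly as a repressor with the pocket proteins, averaged 105 ± 3.25 CPM in CAR-Trem2-Ms and 92.9 ± 2.31 CPM in CAR-Ms (log2 0.18 ± 0.049), but its change was -0.51 on log2(TPM + 1) and -0.31 after the correction. E2f5, the other repressor, averaged 26.4 ± 0.844 CPM in CAR-Trem2-Ms and 26.0 ± 3.19 CPM in CAR-Ms, and its groups overlapped.

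**Figure D3:**
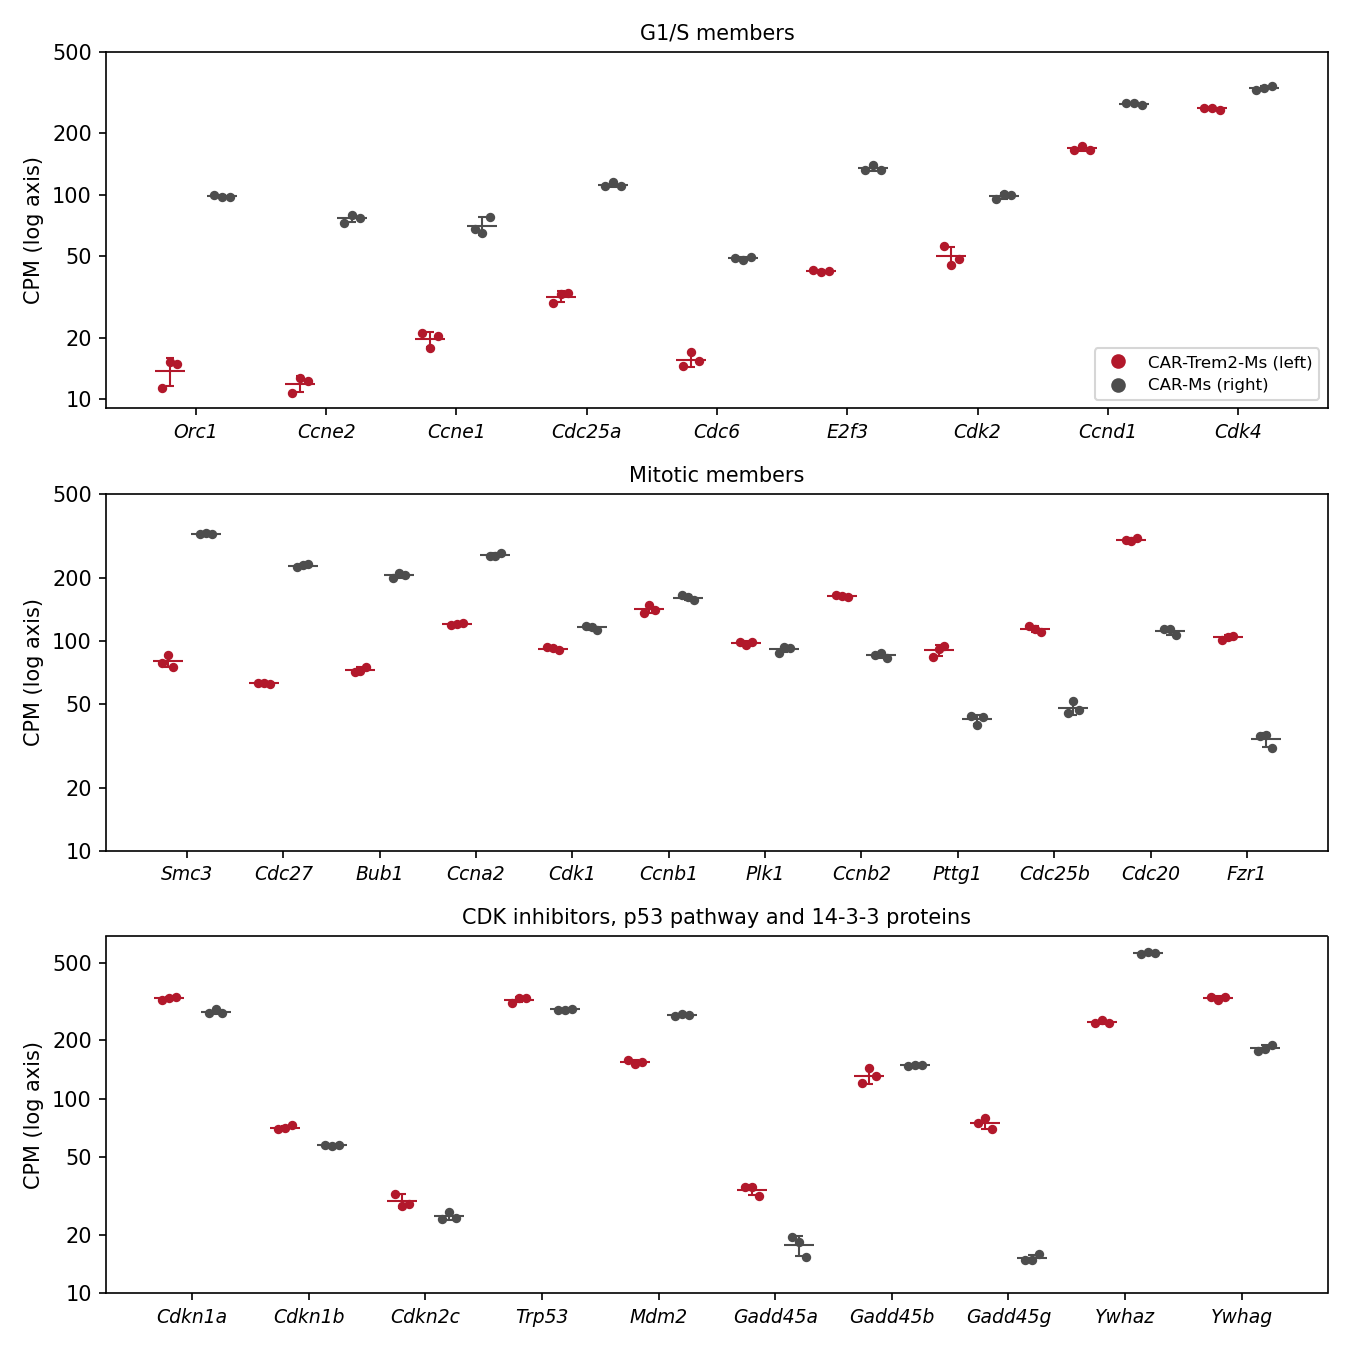
CPM (y axis, log scale) of members named on the x axis in every sample, CAR-Trem2-Ms in red on the left and CAR-Ms in grey on the right of each gene; points are samples, lines and bars the mean and SD of 3. In the G1/S panel each CAR-Trem2-Ms value lies below each CAR-Ms value of the same gene, in the mitotic panel Smc3, Cdc27, Bub1 and Ccna2 are lower and Ccnb2, Pttg1, Cdc25b, Cdc20 and Fzr1 higher, and in the lowest panel Gadd45g stands at 69.9 to 79.8 CPM in CAR-Trem2-Ms and 14.8 to 15.9 CPM in CAR-Ms.

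Origin licensing genes included the member with the largest fold change of all 104. Orc1, the large subunit that recruits the origin recognition complex and CDC6 to chromatin (ENSMUSG00000028587, chromosome 4, 108579423 to 108614833, plus strand), had a level of 11.3, 15.2 and 14.8 CPM in CAR-Trem2-Ms, against 99.4, 97.3 and 97.2 CPM in CAR-Ms, 7.17-fold lower (log2 -2.84 ± 0.084; adjusted p = 2.6e-22, edgeR). Cdc6, which loads the helicase with ORC, read 14.5, 17.0 and 15.4 CPM in CAR-Trem2-Ms, against 49.1, 47.9 and 49.3 CPM in CAR-Ms, 3.14-fold lower. Orc6, the smallest ORC subunit, read 32.5, 30.8 and 30.0 CPM in CAR-Trem2-Ms, against 92.0, 91.7 and 87.4 CPM in CAR-Ms, 2.90-fold lower. The subunits of one complex did not move alike: Orc2 was lower by 1.16 ± 0.049, Orc5 by 0.46 ± 0.074 and Orc4 by 0.37 ± 0.077 on the log2 scale, and Orc3 was not called at -0.11 ± 0.07. Dbf4, the activating subunit of the origin-firing kinase, was lower by 1.02 ± 0.043, and its catalytic partner Cdc7 by 0.25 ± 0.086, a change that came to 0.02 after the GC and length correction. Cdc45, part of the active helicase, was lower by 0.90 ± 0.086.

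In the mitotic set, the cyclin and kinase group split between its members. Ccna2, the cyclin of S phase and G2, read 119, 120.0 and 122 CPM in CAR-Trem2-Ms, against 253, 255 and 262 CPM in CAR-Ms, 2.13-fold lower. Ccnb1, the main mitotic cyclin, read 136, 147 and 141 CPM in CAR-Trem2-Ms, against 165, 161 and 156 CPM in CAR-Ms, a log2 change of -0.19 ± 0.042 that was 0.05 with upper quartile factors. Ccnb2 (ENSMUSG00000032218, chromosome 9, 70407692 to 70421547, minus strand), its paralogue, went the other way, with 165, 163 and 161 CPM in CAR-Trem2-Ms, against 85.6, 87.8 and 83.0 CPM in CAR-Ms, 1.91-fold higher (log2 0.93 ± 0.044; adjusted p = 1.7e-17, edgeR). Every CAR-Trem2-Ms sample lay above every CAR-Ms sample for Ccnb2 and below it for Ccna2. Cdk1, the kinase of both B cyclins, read 93.5, 92.1 and 90.0 CPM in CAR-Trem2-Ms, against 118, 117 and 113 CPM in CAR-Ms, lower by 0.34 ± 0.047 on the log2 scale and by 0.05, no longer called, after the GC and length correction. Plk1, a kinase that triggers mitotic entry and spindle assembly, read 99.1, 95.2 and 99.2 CPM in CAR-Trem2-Ms, against 87.7, 93.1 and 92.2 CPM in CAR-Ms; the groups did not overlap, but it was not called (log2 0.11 ± 0.05, adjusted p = 0.053), and it stood at -0.56 on log2(TPM + 1).

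The regulators of the inhibitory phosphates on CDK1 were in part higher. Pkmyt1, a membrane-bound kinase that inhibits CDK1, read 46.9, 51.0 and 46.0 CPM in CAR-Trem2-Ms, against 22.3, 21.9 and 24.3 CPM in CAR-Ms, 2.10-fold higher. Cdc25b, a phosphatase that removes that mark as cells enter mitosis, read 117, 114 and 109.9 CPM in CAR-Trem2-Ms, against 45.1, 51.6 and 46.9 CPM in CAR-Ms, 2.37-fold higher. This kinase and this phosphatase, of opposing action, were both higher, and both were called higher under all 6 scalings. Wee1, the nuclear counterpart of Pkmyt1, was lower, with 32.7 ± 4.30 CPM in CAR-Trem2-Ms and 44.7 ± 3.34 CPM in CAR-Ms. Cdc25c was not called, at 21.4 ± 0.741 CPM in CAR-Trem2-Ms and 23.9 ± 0.726 CPM in CAR-Ms.

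Among spindle checkpoint and kinetochore genes, 4 of 7 were lower, 2 higher and 1 not called (all tested genes: 40.1% lower, 40.9% higher). Bub1, the kinetochore kinase that recruits checkpoint proteins, read 70.8, 72.2 and 75.3 CPM in CAR-Trem2-Ms, against 199, 209 and 205 CPM in CAR-Ms, 2.81-fold lower. Bub3, the small protein that anchors BUB1 at the kinetochore, read 222, 224 and 231 CPM in CAR-Trem2-Ms, against 129, 132 and 124 CPM in CAR-Ms, 1.76-fold higher. These binding partners therefore differed in opposite directions. Ttk, the kinase that starts checkpoint signalling, read 34.9, 32.7 and 32.1 CPM in CAR-Trem2-Ms, against 52.1, 55.4 and 46.2 CPM in CAR-Ms, 1.54-fold lower. Bub1b was lower by 0.48 ± 0.035 and Mad2l1 by 0.31 ± 0.055 on the log2 scale, although Mad2l1 reached 0.36 after the GC and length correction. Mad1l1, which carries MAD2 to the kinetochore, was higher by 0.35 ± 0.092, but stood at -0.32 on log2(TPM + 1) and -0.09 after that correction. Mad2l2, a relative of MAD2 with a main role in DNA repair, overlapped between the groups at 11.6 ± 3.20 CPM in CAR-Trem2-Ms and 11.8 ± 1.69 CPM in CAR-Ms.

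Of 16 tested APC/C members, 6 were higher and 6 lower, 37.5% each, close to the 40.9% and 40.1% of all tested genes, and the 2 activators were among those higher. Cdc20 (ENSMUSG00000006398, chromosome 4, 118432901 to 118437352, minus strand), which turns the complex on at metaphase, read 303, 299 and 307 CPM in CAR-Trem2-Ms, against 114, 113 and 107 CPM in CAR-Ms, 2.73-fold higher (log2 1.45 ± 0.037; adjusted p = 7.8e-24, edgeR). Fzr1 (ENSMUSG00000020235, chromosome 10, 81366222 to 81378516, minus strand), also called CDH1, which keeps it on from late mitosis through G1, read 101, 105 and 106 CPM in CAR-Trem2-Ms, against 35.3, 35.5 and 31.0 CPM in CAR-Ms, 3.06-fold higher (adjusted p = 3.5e-19). Both were called higher under all 6 scalings. Of the 14 other members of the complex, 6 were lower, 4 were higher and 4 were not called. Cdc27, a scaffold subunit that binds the activators, read 62.8, 63.3 and 62.2 CPM in CAR-Trem2-Ms, against 224, 229 and 231 CPM in CAR-Ms, 3.64-fold lower, and Anapc1, the largest scaffold subunit, averaged 141 ± 1.66 CPM in CAR-Trem2-Ms and 359 ± 2.54 CPM in CAR-Ms, 2.55-fold lower. Anapc15, Anapc10, Anapc7 and Anapc4 were lower by 1.00 ± 0.10, 0.72 ± 0.14, 0.69 ± 0.072 and 0.33 ± 0.078 on the log2 scale, and Anapc4 was not called with upper quartile factors (-0.10, adjusted p = 0.24) or after the GC and length correction (-0.05, adjusted p = 0.58). Anapc16 was higher by 0.82 ± 0.083, Anapc2, the cullin subunit, by 0.73 ± 0.064, its RING partner Anapc11 by 0.39 ± 0.087, and Cdc23 by 0.20 ± 0.083, of which Anapc2 stood at -0.08 and Cdc23 at -0.50 on log2(TPM + 1), where Anapc11 (0.02, adjusted p = 0.77) and Anapc16 (0.16, adjusted p = 0.076) were not called by limma. Cdc16, Cdc26, Anapc5 and Anapc13 were not called.

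Cohesin, the ring that holds sister chromatids together, was lower in all 5 of its tested subunits, while securin, which guards it from cleavage, was higher. Smc3 read 78.8, 85.5 and 75.3 CPM in CAR-Trem2-Ms, against 323, 326 and 322 CPM in CAR-Ms, 4.07-fold lower. Stag2, a subunit that docks cohesin on chromatin, read 92.0, 94.5 and 92.1 CPM in CAR-Trem2-Ms, against 295, 292 and 295 CPM in CAR-Ms, 3.17-fold lower. Rad21, the subunit that separase cuts, read 159, 149 and 173 CPM in CAR-Trem2-Ms, against 420.3, 418 and 411 CPM in CAR-Ms, 2.59-fold lower. Stag1 and Smc1a were lower by 1.35 ± 0.057 and 0.91 ± 0.037 on the log2 scale. All 5 cohesin subunits were called lower under all 6 scalings, where 29.7% of all genes were. Cohesin also shapes chromosome loops outside mitosis. Pttg1, or securin, which restrains separase, read 83.9, 91.7 and 94.3 CPM in CAR-Trem2-Ms, against 44.0, 39.8 and 43.2 CPM in CAR-Ms, 2.13-fold higher. Espl1, the separase itself, averaged 115 ± 4.04 CPM in CAR-Trem2-Ms and 103 ± 5.57 CPM in CAR-Ms (log2 0.16 ± 0.049), a small rise that stood at -0.45 on log2(TPM + 1) and lost its call in at least 1 fit that left out a sample. The Cdc14 phosphatases were grouped here under mitotic exit, a role that was not tested in these cells. Cdc14a read 10.5, 11.2 and 9.30 CPM in CAR-Trem2-Ms, against 22.6, 22.9 and 24.2 CPM in CAR-Ms, 2.25-fold lower. Cdc14b read 28.8, 32.3 and 30.1 CPM in CAR-Trem2-Ms, against 35.1, 43.4 and 35.8 CPM in CAR-Ms, or -0.33 ± 0.093, which turned to 0.24 after the GC and length correction.

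The CDK inhibitors, which arrest the cycle, differed by little with TMM factors. All 4 that could be tested were higher by log2 0.21 to 0.30 with these factors (all tested genes: 40.9% higher). On log2(TPM + 1), where the median of all genes was -0.63, all 4 were negative, -0.48 to -0.29. Cdkn1a, which encodes p21 and is the best known target of p53, read 322, 330.1 and 332 CPM in CAR-Trem2-Ms, against 275, 290.4 and 276 CPM in CAR-Ms, 1.17-fold higher (log2 0.23 ± 0.031; adjusted p = 2e-07, edgeR), but was -0.14 after the GC and length correction, where Cdkn2c and Cdkn2d were negative too. Its TPM averaged 215 ± 3.89 TPM in CAR-Trem2-Ms and 294 ± 8.10 TPM in CAR-Ms (SD, n = 3 each). Cdkn1b, or p27, read 69.6, 70.6 and 73.1 CPM in CAR-Trem2-Ms, against 58.1, 57.2 and 57.8 CPM in CAR-Ms, 1.23-fold higher. After the GC and length correction Cdkn1b was higher by 0.72 on the log2 scale (adjusted p = 4.2e-12, edgeR). It lay above the median of all genes under all 6 scalings. Cdkn2c, or p18, read 32.6, 28.1 and 28.7 CPM in CAR-Trem2-Ms, against 24.1, 26.4 and 24.5 CPM in CAR-Ms, a difference whose call was lost when CAR-Trem2-Ms replicate 1 (adjusted p = 0.11), CAR-Ms replicate 1 (0.077) or CAR-Ms replicate 3 (0.062) was left out. The groups did not overlap for these 3 genes, as for 81.8% of all tested genes. Cdkn1a and Cdkn2c changed direction on log2(TPM + 1) and after the GC and length correction, and Cdkn1b on log2(TPM + 1) only. Cdkn2d averaged 42.5 ± 1.25 CPM in CAR-Trem2-Ms and 36.8 ± 2.33 CPM in CAR-Ms. Cdkn1c and Cdkn2b had 1 read each in all 6 samples together.

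In the p53 and DNA damage role 5 of 11 were higher and 5 lower, 45.5% each, close to the 40.9% and 40.1% of all tested genes. Trp53, which encodes p53, read 311, 328 and 328 CPM in CAR-Trem2-Ms, against 287, 287 and 289 CPM in CAR-Ms, 1.12-fold higher, a difference that stood at -0.53 on log2(TPM + 1) and was not called with total-count scaling. Mdm2, both a target of p53 and its ubiquitin ligase, read 158, 152 and 155 CPM in CAR-Trem2-Ms, against 267, 272 and 269.7 CPM in CAR-Ms, 1.74-fold lower. The 3 Gadd45 genes, stress-induced inhibitors of CDK1 and activators of p38 signalling, did not move together. Gadd45g read 75.2, 79.8 and 69.9 CPM in CAR-Trem2-Ms, against 14.8, 14.9 and 15.9 CPM in CAR-Ms, 4.92-fold higher (log2 2.30 ± 0.082), with a log2 change of 1.42 after the GC and length correction and 1.56 on log2(TPM + 1). Gadd45a read 35.2, 35.3 and 31.8 CPM in CAR-Trem2-Ms, against 19.4, 18.3 and 15.4 CPM in CAR-Ms, 1.92-fold higher, and both were called higher under all 6 scalings. Gadd45b read 120.3, 144 and 131 CPM in CAR-Trem2-Ms, against 148, 148 and 149.8 CPM in CAR-Ms, a log2 change of -0.18 ± 0.048 that was 0.05 with upper quartile factors. The checkpoint kinases were lower: Chek1 read 25.4, 27.8 and 28.1 CPM in CAR-Trem2-Ms, against 58.9, 57.0 and 58.0 CPM in CAR-Ms, 2.14-fold lower. Chek2 read 20.8, 22.1 and 17.2 CPM in CAR-Trem2-Ms, against 43.9, 39.7 and 44.5 CPM in CAR-Ms, 2.14-fold lower. Of the kinases above them, Atm was lower by 0.80 ± 0.047 on the log2 scale but not called after the GC and length correction (-0.05, adjusted p = 0.32), Atr was at 0.19 ± 0.061 and at -0.44 on log2(TPM + 1), and Prkdc was not called. Sfn, a 14-3-3 protein induced by p53, averaged 2.79 ± 1.54 CPM in CAR-Trem2-Ms and 0.925 ± 0.113 CPM in CAR-Ms, a low level (log2 1.61 ± 0.42), and was not called on log2(TPM + 1) (0.47, adjusted p = 0.13, limma) or after the GC and length correction (0.91, adjusted p = 0.051).

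14-3-3 proteins bind phosphorylated CDC25 and other regulators. Of their 6 genes besides Sfn, which was higher and is counted in the p53 role, 4 were lower and 2 higher (all tested genes: 40.1% and 40.9%). Ywhaz read 244, 253 and 246 CPM in CAR-Trem2-Ms, against 553, 567 and 563 CPM in CAR-Ms, 2.27-fold lower. Ywhaq read 181, 186 and 181 CPM in CAR-Trem2-Ms, against 364, 361 and 362 CPM in CAR-Ms, 1.98-fold lower. Ywhae and Ywhab were lower by 0.66 ± 0.027 and 0.44 ± 0.048 on the log2 scale. Ywhag read 334, 323 and 334 CPM in CAR-Trem2-Ms, against 176, 180.5 and 189 CPM in CAR-Ms, 1.82-fold higher, and Ywhah averaged 258 ± 15.2 CPM in CAR-Trem2-Ms and 147 ± 0.748 CPM in CAR-Ms, 1.75-fold higher, but was not called on log2(TPM + 1) (0.12, adjusted p = 0.053, limma). In these 6 genes the groups did not overlap, as in 81.8% of all tested genes. Genes such as Skp1, Rbx1 and the 14-3-3 family have processed copies in the genome that may share reads, so their values are less certain.

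The SCF ligase destroys p27 and other inhibitors at the G1/S step. Skp2, the receptor subunit that binds p27, read 26.6, 20.6 and 18.0 CPM in CAR-Trem2-Ms, against 95.5, 96.2 and 100.1 CPM in CAR-Ms, 4.46-fold lower. Skp1, its adaptor, read 69.1, 73.3 and 70.1 CPM in CAR-Trem2-Ms, against 202, 191 and 191 CPM in CAR-Ms, 2.75-fold lower. Cul1, the scaffold, read 121, 118 and 117 CPM in CAR-Trem2-Ms, against 280.3, 269.9 and 258 CPM in CAR-Ms, 2.27-fold lower. Rbx1, the RING subunit, was higher by 0.86 ± 0.072 with TMM factors and stood at -0.03 on log2(TPM + 1). Of the CDK-activating kinase, Ccnh read 46.1, 42.7 and 45.3 CPM in CAR-Trem2-Ms, against 35.6, 37.1 and 37.7 CPM in CAR-Ms, or 0.28 ± 0.076, which was -0.43 on log2(TPM + 1), and Cdk7 was not called. Among 7 coactivators, corepressors and signalling partners, 6 were lower (all tested genes: 40.1% lower). Ep300, an acetyltransferase that works with E2F and p53, read 148, 140.3 and 138 CPM in CAR-Trem2-Ms, against 476, 480.1 and 473 CPM in CAR-Ms, 3.35-fold lower. Crebbp, its paralogue, read 78.1, 86.4 and 82.0 CPM in CAR-Trem2-Ms, against 193, 199.5 and 186 CPM in CAR-Ms, 2.35-fold lower. Gsk3b, a kinase that marks cyclin D1 for export and decay, read 72.3, 68.2 and 69.3 CPM in CAR-Trem2-Ms, against 164, 166 and 160.0 CPM in CAR-Ms, 2.33-fold lower. Hdac2, Hdac1 and Abl1 were lower by 0.80 ± 0.045, 0.71 ± 0.051 and 0.30 ± 0.052 on the log2 scale. Zbtb17, also called MIZ1, a partner of MYC, was the exception at 40.6 ± 2.27 CPM in CAR-Trem2-Ms and 19.3 ± 1.27 CPM in CAR-Ms, 2.11-fold higher.

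Ratios of 2 counts within a sample do not depend on how libraries are scaled, but they are not corrected for length or GC content. They are given as a description and compare each ratio between the groups, not the level of one gene with another. The ratio of Ccne2 to Ccnb2 counts was 0.0729 ± 0.00696 in CAR-Trem2-Ms and 0.894 ± 0.0371 in CAR-Ms (SD, n = 3 each), 12.3-fold lower. Cdc25a to Cdc25b was 0.279 ± 0.0255 in CAR-Trem2-Ms and 2.33 ± 0.106 in CAR-Ms, and Anapc1 to Cdc20 was 0.465 ± 0.0114 in CAR-Trem2-Ms and 3.23 ± 0.114 in CAR-Ms. Bub1 to Bub3 was 0.322 ± 0.00316 in CAR-Trem2-Ms and 1.60 ± 0.0513 in CAR-Ms. For the paralogues Ywhaz and Ywhag the ratio was 0.750 ± 0.0285 in CAR-Trem2-Ms and 3.09 ± 0.0904 in CAR-Ms, and for Ccnb1 and Ccnb2 it was 0.866 ± 0.0408 in CAR-Trem2-Ms and 1.88 ± 0.0473 in CAR-Ms. Each of these 6 pairs sets a member called lower over one called higher, so the ratios restate fold changes given above. That every CAR-Trem2-Ms ratio lay below every CAR-Ms ratio is therefore no separate result. Summed over the sets, G1/S to mitotic counts stood at 0.455 ± 0.00671 in CAR-Trem2-Ms and 0.596 ± 0.00685 in CAR-Ms.

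Across mitotic members the fold change went with transcript length and GC content, and across G1/S members rho was close to 0 for both. Across the 41 mitotic members, Spearman's rho of the fold change was -0.59 with the length of the longest transcript and 0.66 with its GC content, while across the 29 G1/S members it was 0.00 and -0.02, and across all genes -0.31 and 0.28. These are descriptions across genes, which share the same 6 libraries and are not independent replicates. The 13 higher mitotic members had a median length of 3004 bases and 54.2% GC, and the 21 lower ones 4375 bases and 44.3% GC. Fzr1 has 59.9% GC over 3057 bases and Cdc20 55.6% over 1793, while Smc3 has 42.3% over 4851 and Cdc27 39.9% over 5425. With per-sample correction for both, 15 mitotic members were higher and 21 lower, and 2 G1/S members were higher and 22 lower. The correction moved the G1/S median to -0.66, against -0.90 without it, and the mitotic median to -0.09, against -0.19 without it. Whether length or GC content has a part in either set was not tested beyond that correction.

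**Figure D4:**
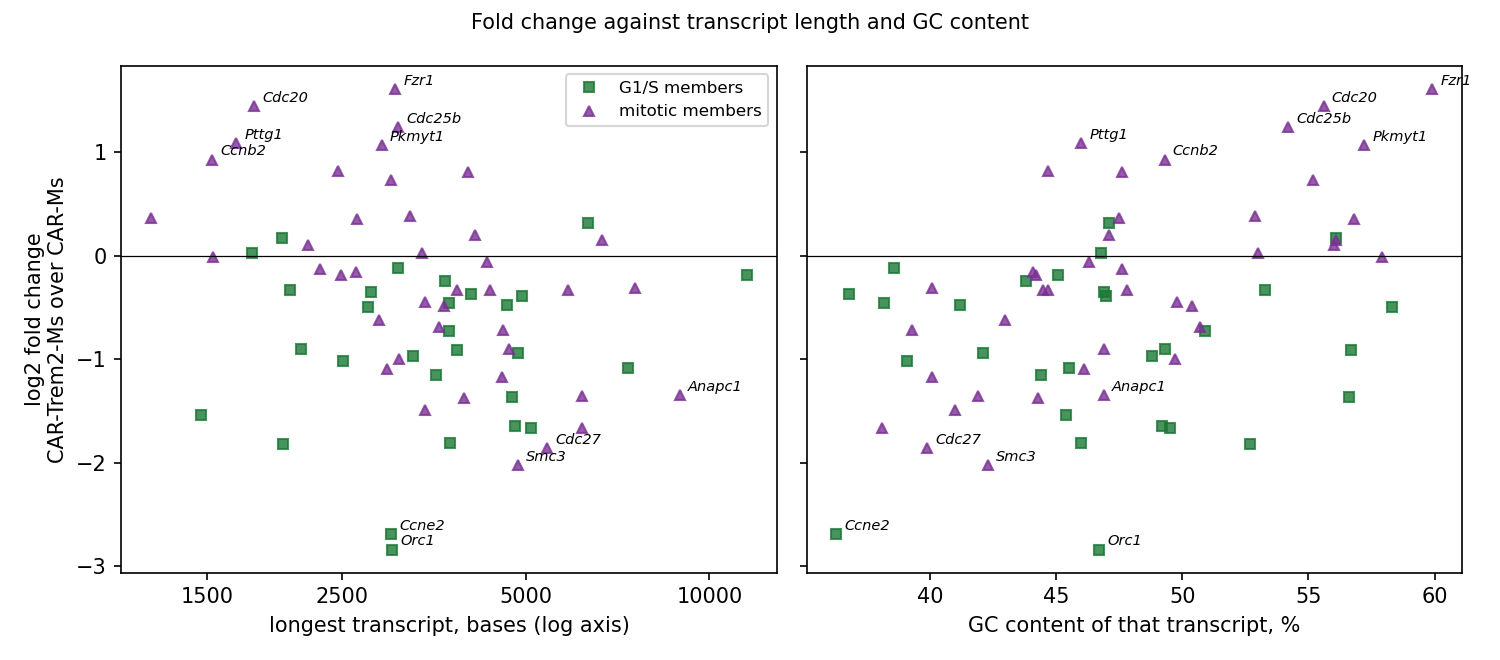
Log2 fold change (y axis, CAR-Trem2-Ms over CAR-Ms) of G1/S members (green squares) and mitotic members (purple triangles) against the length of the longest transcript in bases (left, log axis) and its GC content in percent (right). Mitotic members slope down with length (rho -0.59) and up with GC content (rho 0.66), and G1/S members show neither slope (0.00 and -0.02).

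Genes of the same steps that are not members were read beside them. These lists were chosen with earlier results of these data known, so they are not an independent check. Over all tested genes 40.1% were lower and 40.9% higher. All 16 listed targets of the G1/S program were lower, with a median of -1.66, and all 16 lay below 0 under each of the 6 scalings. Among them was Brca1, of homologous recombination, at 24.5 ± 2.92 CPM in CAR-Trem2-Ms and 142 ± 5.09 CPM in CAR-Ms (log2 -2.55 ± 0.067, and -1.96 after the GC and length correction). Of 30 listed mitotic genes, 23 were lower, 5 higher and 2 not called, with a median of -0.53; on log2(TPM + 1) 28 were lower and 2 higher, and after the GC and length correction 17 were lower and 9 higher. Mki67, the proliferation antigen Ki-67, read 336, 328 and 318 CPM in CAR-Trem2-Ms, against 959, 953 and 966 CPM in CAR-Ms, 2.93-fold lower (log2 -1.55 ± 0.025), with -0.87 after the GC and length correction and -2.20 on log2(TPM + 1). Ube2c, the ubiquitin-conjugating enzyme of the APC/C, read 188, 188 and 179.8 CPM in CAR-Trem2-Ms, against 68.3, 70.6 and 64.6 CPM in CAR-Ms, 2.72-fold higher, and Cdkn3, a phosphatase that acts on CDKs, averaged 12.0 ± 1.50 CPM in CAR-Trem2-Ms and 4.42 ± 0.550 CPM in CAR-Ms, 2.71-fold higher; on log2(TPM + 1) their changes were 0.73 and 0.67. Of 5 listed members of the DREAM and MuvB complexes, which repress or activate cell cycle genes, Lin9, Lin52, Lin54 and Rbbp4 were lower and Lin37 was higher by 1.06 ± 0.15, which was 0.42 after the GC and length correction, and 0.34 and not called on log2(TPM + 1). Of 20 listed p53 targets, 9 were higher, 8 lower and 3 not called, or 45% higher and 40% lower, close to the share of all tested genes, with 3 higher and 11 lower of 19 on log2(TPM + 1). Bax, a trigger of apoptosis, was higher by 1.31 ± 0.039, with 0.36 after the GC and length correction and 0.60 on log2(TPM + 1). Sesn2, a stress-response gene, was lower by 0.84 ± 0.044, with -1.50 on log2(TPM + 1). Of 14 genes linked to quiescence, 6 were higher and 6 lower, 42.9% each, again close to all tested genes, with 3 higher and 9 lower on log2(TPM + 1). Klf2, a factor of resting cells, averaged 20.3 ± 2.49 CPM in CAR-Trem2-Ms and 2.85 ± 0.612 CPM in CAR-Ms, 7.09-fold higher (log2 2.83 ± 0.18), with 2.12 after the GC and length correction and 1.81 on log2(TPM + 1).

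The 7 members that could not be tested had few or no reads. No read was seen for Ccna1, the germ-line cyclin A, Smc1b, the meiotic cohesin subunit, or Anapc15-ps. Ccnb3 had 1 read, and Wee2, an oocyte kinase, had 0, 0 and 3 reads in CAR-Trem2-Ms and 1, 9 and 3 in CAR-Ms.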

How the data were processed

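The authors deposited one table with raw read counts per gene, TPM values, a log2 fold change and adjusted p-values, per the file headers. The submitters' processing notes name the mm10 genome, HISAT2, StringTie 1.3.1, Bowtie2 2.2.8 and fastp 0.18.0; the sources used here do not state how reads were counted or whether strand was used. The edgeR 4.0.16 test ran over all genes in R 4.3.3 (TMM factors, filterByExpr, quasi-likelihood, two-sided, Benjamini-Hochberg). CPM carry TMM factors, and SE is the log2 fold change over the square root of its F statistic. Coordinates, length and GC content are of GENCODE annotation on GRCm38, and all 111 members matched. Replicate pairs gave a chi-square per degree of freedom of 3.21 to 3.34 in CAR-Trem2-Ms and 2.19 to 2.36 in CAR-Ms, so each sample counted once. On simulated data over 11402 genes the test recovered 179 of 200 genes changed 2-fold and called 16 unchanged ones. With so few genes changed, the simulation does not try the scaling where 81.1% of genes are called.

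Alternatives were other factors and filters, DESeq2 1.42.0, limma 3.58.1 on counts (voom) and on log2(TPM + 1), a replicate block, leaving out each sample and, added after seeing the data, the GC and length correction (splines with 5 degrees of freedom). The members and lists were chosen with earlier results of these data known. Values in every sample are given for 56 members: fixed ones, and up to 3 called members per role with at least 50 reads, no overlap and the largest fold change.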

Additional observations from a re-analysis of the deposited data

How the results depend on the processing

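With limma-trend on log2(TPM + 1), 1890 of all genes were higher and 6946 lower, 11 members were higher, 0 G1/S and 7 mitotic members were higher, and 2 of the 46 other proliferation genes were higher; with a pseudocount of 0.1 the figures were 1881, 6927, 11, 0, 7 and 2. With a log2 fold change of at least 1 required, 2136 of all genes were higher and 1629 lower, 8 members were higher and 30 lower, 0 G1/S members were higher and 11 lower, 5 mitotic members were higher and 10 lower, and 2 other proliferation genes were higher and 19 lower. Higher G1/S members numbered 2 with upper quartile factors, 0 with total-count scaling and 2 after the GC and length correction, which also gave 9 higher other proliferation genes. The cause of these shifts was not tested. With upper quartile factors 34 members were higher and 54 lower, and with total-count scaling 20 were higher and 69 lower.

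Among the 56 members given in every sample, those that turned direction were Ccnb1 (0.05), Cdk6 (0.05) and Gadd45b (0.05) with upper quartile factors; Plk1 (-0.02) with total-count scaling; Ccnh (-0.43), Cdkn1a (-0.45), Cdkn1b (-0.42), Cdkn2c (-0.29), Plk1 (-0.56) and Trp53 (-0.53) on log2(TPM + 1); the same genes with the pseudocount of 0.1 (-0.44, -0.45, -0.43, -0.30, -0.57 and -0.53); and Cdc14b (0.24), Cdk6 (0.53), Cdkn1a (-0.14), Cdkn2c (-0.27) and Plk1 (-0.34) after the GC and length correction. Among the other tested members 5 turned with upper quartile factors, 3 with total-count scaling, 13 on log2(TPM + 1), among them E2f4, Atr, Mad1l1, Espl1, Cdc23, Cdkn2d and Anapc13, and 9 after the GC and length correction, among them E2f4, Mad1l1, Mad2l1, Cdkn2d and Cdc7. Calls lost in the same direction numbered 7, 8, 5 and 6 in that order of settings, and none were lost with RLE factors. The cause was not tested.

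Leaving out 1 sample at a time gave 24 to 30 higher and 64 to 65 lower members, 1 higher and 25 to 26 lower G1/S members, and 11 to 14 higher and 21 lower mitotic members, over 4497 to 4662 higher and 4414 to 4575 lower genes in all. Of the 92 called members, 88 kept their call each time, and Cdc23, Cdkn2c, Cdkn2d and Espl1 did not. The share of all called genes that kept theirs was not computed, so the 88 are not a result about the members. DESeq2, which tested 108 members, called 26 higher and 65 lower (all genes it tested: 28.2% and 28.7%).

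Replicate numbers occur in both groups, but same-numbered samples did not deviate together (r = 0.028, -0.027 and 0.032), so they share only a number. With the number as a replicate block, 4627 of all genes were higher and 4561 lower, and 28 members were higher and 64 lower, with 1 higher and 25 lower G1/S members and 13 higher and 21 lower mitotic members; not every sample correlated best with its own number. Members with few reads, such as Ccnd2, Sfn and Anapc13, had wide standard errors on the log2 fold change, 0.39, 0.42 and 0.23, so depth limits what can be said of them.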
